A study of Mus musculus with 2 samples.

Results

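The Neurod1-positive cells of TKO2 are the tumor cells of 1 mouse small cell lung cancer in which at least 1 transcript of Neurod1 was counted. They were chosen by a rule on the deposited counts of TKO2. A cell barcode was taken when it had more than 500 detected genes, fewer than 10 unique molecular identifiers (UMIs, the tags that mark single captured transcripts) of the club cell gene Scgb1a1, fewer than 5 UMIs summed over the macrophage genes Lyz2, C1qa, C1qb, C1qc, Tyrobp and Fcer1g, and at least 1 Neurod1 UMI. This gave 62 cells of the 3466 cells within the same limits, of 3816 barcodes of TKO2 and of 8330 barcodes in the series. The Neurod1 UMIs themselves chose the cells, so their level is given as a description.

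The series holds 1 tumor from each of 2 mice, TKO1 and TKO2, with 1 single cell library (10x Chromium) per tumor, 5285038 UMIs in TKO1 and 8291430 in TKO2. Both mice were of genotype Rb-/-, Trp53-/-, Rbl2-/- with the Rosa26 membrane-Tomato or membrane-GFP reporter, on a mixed C57BL/6, 129/SVJ, 129/SvOla background. Both were 8 to 9 months old, and each tumor was taken from the lung 7 months after Adeno-CMV-cre had been given through the trachea. Both tumors thus carry the same deletions, the CMV promoter that drove cre is not specific to a cell type, and live cells were sorted before capture. With 1 library per tumor there is no replicate, so no test was made. All intervals below are exact 95% intervals that cover counting error only, and the share that a count of 0 allows is given as 3 counts over the total, which is no interval bound.

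NEUROD1 is a basic helix-loop-helix (bHLH) transcription factor that drives the late steps of neuron and endocrine cell differentiation. It pairs with E proteins such as TCF3, TCF4 and TCF12 on E-box sequences, and it is induced by earlier proneural factors of the same family. In small cell lung cancer, NEUROD1 is known as the marker of a neuroendocrine subtype. Notch signalling acts through RBPJ to switch on repressors of the HES and HEY families, which hold the proneural factors down.

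The promoter windows of 4 genes are shown because these genes carry the comparison that follows: Neurod1, which chose the cells, Nhlh2 and Hes5, which were higher in them, and Krt8, which was lower. Each is the RefSeq window of 300 bases, 250 before to 50 after the start of transcription, in build GRCm38.p6 and on the strand of the gene. Capitals mark the E-boxes CAGATG and CAGCTG and the RBPJ core TGGGAA on either strand.
Neurod1, chr2:79456587-79456886, minus strand: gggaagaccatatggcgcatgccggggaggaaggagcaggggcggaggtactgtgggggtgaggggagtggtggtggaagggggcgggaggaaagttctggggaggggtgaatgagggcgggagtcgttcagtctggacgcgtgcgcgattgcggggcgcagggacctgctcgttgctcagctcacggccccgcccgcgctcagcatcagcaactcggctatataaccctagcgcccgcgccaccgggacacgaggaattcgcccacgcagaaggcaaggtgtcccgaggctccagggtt
Nhlh2, chr3:102009895-102010194, plus strand: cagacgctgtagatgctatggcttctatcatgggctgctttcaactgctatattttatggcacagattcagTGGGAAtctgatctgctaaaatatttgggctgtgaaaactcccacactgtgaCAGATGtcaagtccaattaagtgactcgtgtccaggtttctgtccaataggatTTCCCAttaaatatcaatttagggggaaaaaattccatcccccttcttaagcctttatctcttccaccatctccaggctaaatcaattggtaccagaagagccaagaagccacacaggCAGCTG
Hes5, chr4:154960673-154960972, plus strand: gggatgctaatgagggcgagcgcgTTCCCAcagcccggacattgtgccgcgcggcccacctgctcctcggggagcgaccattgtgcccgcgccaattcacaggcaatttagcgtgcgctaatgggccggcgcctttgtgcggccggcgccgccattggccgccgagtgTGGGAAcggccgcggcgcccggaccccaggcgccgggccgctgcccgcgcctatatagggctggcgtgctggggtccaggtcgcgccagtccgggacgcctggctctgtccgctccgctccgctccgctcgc
Krt8, chr15:102004293-102004592, minus strand: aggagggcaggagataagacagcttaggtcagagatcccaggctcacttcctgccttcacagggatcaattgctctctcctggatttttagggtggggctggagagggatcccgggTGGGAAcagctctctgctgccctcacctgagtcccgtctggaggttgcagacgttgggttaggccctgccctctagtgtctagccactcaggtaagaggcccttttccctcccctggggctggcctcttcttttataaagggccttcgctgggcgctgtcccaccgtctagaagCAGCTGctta
The Nhlh2 window holds 1 CAGATG, 1 CAGCTG and 2 TGGGAA matches, the Hes5 window 2 TGGGAA matches, and the Krt8 window 1 CAGCTG and 1 TGGGAA match. None of these letters is in the Neurod1 window. Of 32851 RefSeq promoter windows, 17.2% hold CAGATG, 16.3% hold CAGCTG and 25.6% hold TGGGAA, and the motifs do not overlap in the windows shown. Of 13 genes looked up, 10 had a window, and Stmn2, Hey1 and Mapt did not. Of these 10 genes, 6 had a match in a window, the others being Neurod2, Meg3 and Cldn7, and 4 had none, Neurod1, Gadd45a, Dlk1 and Epcam, so that genes higher and lower in members are found on both sides. Here a match is to any of these motifs, found in 6 of the 12 windows of these genes. The share of all RefSeq windows with any of the motifs was not counted, so the count is a description and not a result about these genes.

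Neurod1 (chromosome 2, 79452521 to 79456751, minus strand, GRCm38, 2 exons) was rare in TKO2. The 62 cells held 95 Neurod1 UMIs, 1 UMI in 39 cells, 2 in 17, 3 in 3, 4 in 2 and 5 in 1. They were 1.79% of the cells within the limits (interval 1.37 to 2.29). No Neurod1 UMI fell outside the limits: 0 of 350 such barcodes had one, which allows a share of up to 0.857%. The least complex member had 510 detected genes, just inside the limit of 500. Over all members there was 1 UMI of Lyz2, 1 of C1qb and 0 of Scgb1a1.

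The share of cells with a Neurod1 UMI followed depth. When the 3466 cells were split by total UMIs into 4 groups of near equal size, the shares were 0.692%, 0.924%, 1.96% and 3.58% from the shallowest to the deepest group, with median totals of 1040, 1657, 2322.5 and 3711 UMIs. Counted against total UMIs, the same groups held 10.1, 6.98, 15.2 and 12.6 Neurod1 UMIs in every 1000000 UMIs (CPM). After each cell was thinned to 1000 UMIs, 24 of 3086 cells kept a Neurod1 UMI, 0.778% (interval 0.499 to 1.15), with 380 shallower cells left out. In TKO1, 0 of 4514 barcodes had a Neurod1 UMI, which allows a share of up to 0.0665%, and 0 of 2161 cells thinned in the same way, which allows up to 0.139%. The 88 macrophage-rich barcodes of TKO2, a cell type that should lack Neurod1, also had none, at a median of 1601.5 UMIs against 1972.5 in the 3466 cells within the limits, but so few barcodes allow a share of up to 3.41%. The libraries shared 22 barcodes, of which 0 were members.

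**Figure D1:**
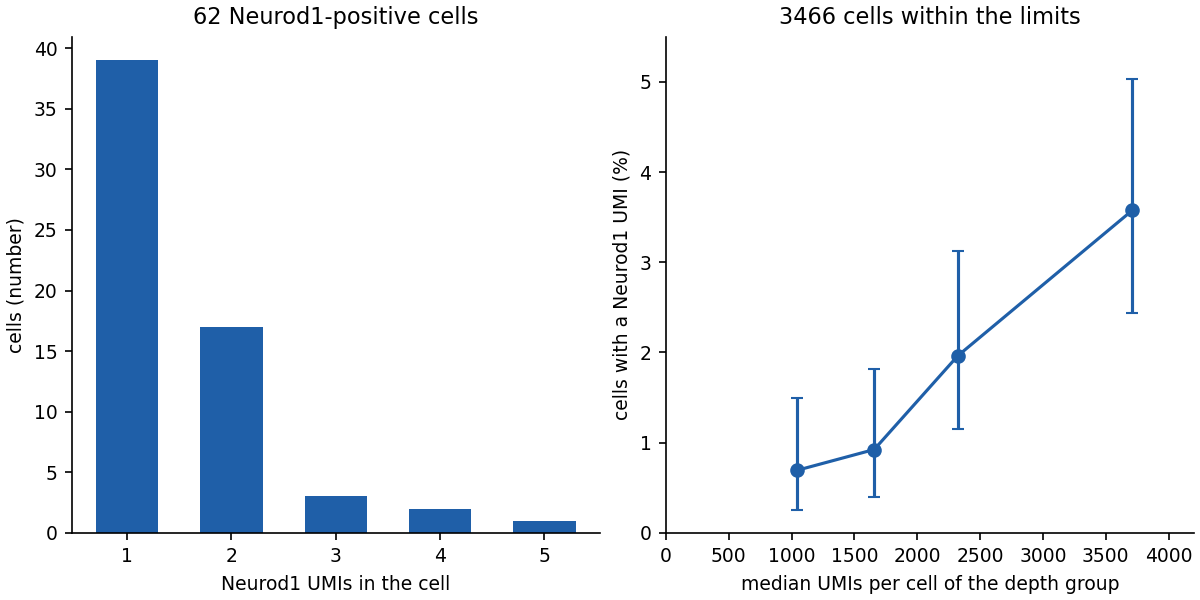
Left, number of Neurod1-positive cells (y axis) by the number of Neurod1 UMIs in the cell (x axis). Right, percent of the 3466 cells within the limits that had a Neurod1 UMI (y axis, bars are exact 95% intervals) against the median total UMIs of each of 4 depth groups (x axis). Most members rest on 1 UMI, and the share goes up from 0.692% in the shallowest group to 3.58% in the deepest.

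Because of this, each member was set beside 10 Neurod1-negative cells of TKO2 with the nearest total UMIs, 620 cells in all. The members had a median of 2809 UMIs (lowest 678, highest 11057) and 1326 detected genes. The matched cells had 2811.5 UMIs and 1347.5 genes, against 1958 UMIs in all 3404 Neurod1-negative cells. Ribosomal protein genes took 22.5% of UMIs in members and 23.1% in matched cells, and mitochondria-encoded genes took 0.815% and 0.899%. UMIs were summed over each group, 207230 in members and 2046516 in matched cells, and compared as CPM and as log2 ratios, members over matched cells.

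Of 2997 genes with a mean of at least 50 CPM over both groups, 50 were at least 2-fold higher in Neurod1-positive cells and 63 at least 2-fold lower. That is 1.67% of genes in the upward and 2.1% in the downward direction, and shares of a gene list are read against these. The median log2 ratio over all 2997 genes was 0.04. Of the 15 genes whose interval lay farthest above 0, Stmn2 belongs to the list of neuronal differentiation genes, Hes5 and Hey1 to that of bHLH partners and inhibitors, and Gadd45a to that of cell cycle exit genes. Of the 15 farthest below 0, 6 belong to the list of epithelial genes. The plot of CPM in members against matched cells shows where these lie.

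**Figure D2:**
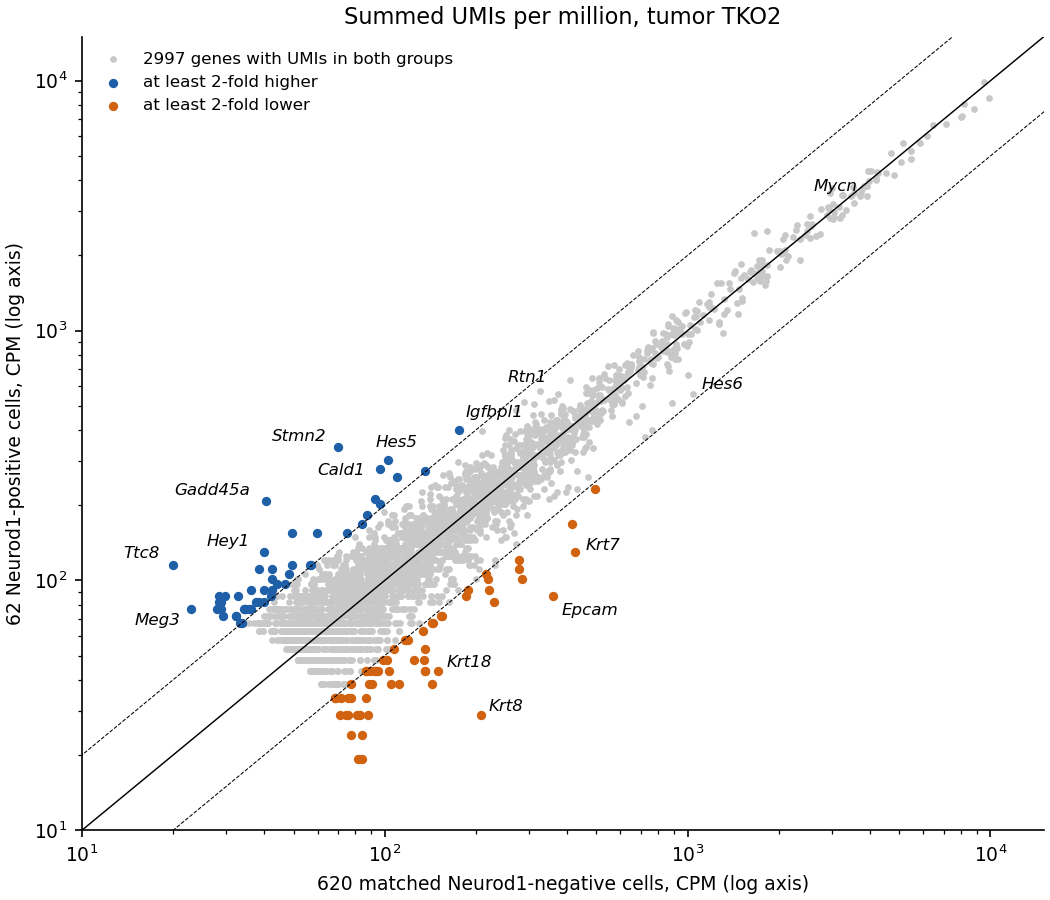
CPM in the 62 Neurod1-positive cells (y axis, log) against CPM in the 620 matched Neurod1-negative cells (x axis, log), each point a gene with a mean of at least 50 CPM. The solid line marks equal values and the dashed lines 2-fold. Stmn2, Gadd45a and Ttc8 lie farthest above, Krt8 and Epcam far below, and Mycn lies on the line of equal values.

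Neuroendocrine markers differed in how many members held them. Uchl1, a neuronal ubiquitin hydrolase, was held by 48 of 62 members, Insm1, a zinc finger regulator of neuroendocrine genes, by 24, and Chga, a secretory granule protein, by 12. Their CPM values were 483, 169 and 57.9 in members and 474, 128 and 95.3 in matched cells. In the 88 macrophage-rich barcodes, at a median of 1601.5 UMIs against 2809 in members, Uchl1, Insm1 and Chga were held by 6.82%, 0 and 1.14%, against 77.4%, 38.7% and 19.4% of members. Syp had 1 UMI in members and 17 in matched cells, Calca 1 and 127, and Resp18 0 and 55. Chgb and Scg3 were held by 6 and 11 members, 9.68% and 17.7%, against 0 and 1.14% of macrophage-rich barcodes. Their log2 ratios, members over matched cells, were -0.09 and -0.50, with intervals that included 0. Scg5, Grp and Ddc were lower in members than in matched cells, as given below. The label of tumor cells rests on Uchl1, Insm1 and Chga, and on the low counts of most markers of other cell types. These 3 genes are a choice among the neuroendocrine markers named here, and Chga had a lower CPM in members.

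Among the proneural bHLH factors, members held more Nhlh2. Nhlh2, a neuronal bHLH factor of differentiating neurons, had 9 UMIs in 6 members and 3 UMIs in 1 matched cell, 43.4 against 1.47 CPM, a log2 ratio of 4.89 (interval 2.89 to 7.41). Over all 3466 cells only 16 held Nhlh2, and 6 of these (37.5%) were members, which themselves are 1.79% of the cells. Neurod2, a close relative of Neurod1, was held by 6 cells with 1 UMI each, of which 3 were members. Nhlh2 and Neurod2 lie below the 50 CPM minimum and were named after their values were seen. The 18 factors of the list counted here, Neurod1 not among them, had 13 UMIs in members and 22 in matched cells, 62.7 against 10.8 CPM, a log2 ratio of 2.54 (interval 1.43 to 3.60), and 0 of the 18 reached that minimum. Nhlh2 gave 9 of the 13 UMIs. Without it the list had 4 against 19 UMIs, a ratio of 1.06 (interval -0.96 to 2.65), and Neurog3 and Ptf1a, with 7 and 6 UMIs in matched cells, had 0 in members.

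The partners and inhibitors of bHLH factors had ratios in both directions. Of 10 listed genes above 50 CPM, 2 were at least 2-fold higher and 0 at least 2-fold lower, with a median log2 ratio of 0.17. The higher genes were both Notch-response repressors. Hes5 (chromosome 4, 154960923 to 154962371) had 63 UMIs in 20 members and 210 UMIs in 78 matched cells, 304 against 103 CPM, a log2 ratio of 1.57 (interval 1.14 to 1.98). Hey1 (chromosome 3, 8663359 to 8667256) had 27 UMIs in 17 members and 82 in 60 matched cells, a log2 ratio of 1.70 (interval 1.02 to 2.34). Hey1 passed 50 CPM only through the members, at 130 against 40.1 CPM. Against negative cells of the same clusters neither gene was past 2-fold, with Hes5 at 0.86 (interval 0.45 to 1.25) and Hey1 at 0.91 (interval 0.26 to 1.52). With at least 2 Neurod1 UMIs, Hes5 was at 0.71 (interval -0.19 to 1.51). Hes6, which counteracts HES1 and promotes neuronal differentiation, was lower at 560 against 1041 CPM, a log2 ratio of -0.89 (interval -1.18 to -0.62). The E proteins showed -0.94 for Tcf12 (interval -2.02 to -0.03), 0.04 for Tcf3 and 0.41 for Tcf4, and both of the latter intervals included 0. The inhibitors Id1, Id2, Id3 and Id4 ranged from -0.58 to 0.52, with every interval including 0. Id3, a leading gene of a cluster rich in members, was at -1.29 (interval -1.93 to -0.71) against negative cells of the same clusters, with 25 UMIs against 566.

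The Notch receptors and ligands were too sparse for a statement on their level. Of 10 listed genes only Dll3, an inhibitory ligand typical of neuroendocrine tumors, passed 50 CPM, with 10 UMIs in members and 179 in matched cells and a log2 ratio of -0.86 (interval -1.94 to 0.05). Notch1 had 0 UMIs in members and 17 in matched cells. The exception was Dlk1, a Delta-like protein made by endocrine and neuroendocrine cells, with 16 UMIs in 6 members and 14 UMIs in 3 matched cells. Its log2 ratio was 3.50 (interval 2.37 to 4.64), and it too was named after its values were seen.

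Neuronal differentiation genes were higher in sum, while 10 of the 16 above 50 CPM had intervals that included 0. Summed over the 31 listed genes, members held 753 UMIs or 3634 CPM and matched cells 5312 UMIs or 2596 CPM, a log2 ratio of 0.49 (interval 0.37 to 0.60). Of 16 members of the list above 50 CPM, 2 were at least 2-fold higher and 0 at least 2-fold lower, and their median log2 ratio was 0.38 against 0.04 over all genes. Among those above 50 CPM, the largest ratio was that of Stmn2 (chromosome 3, 8509360 to 8561606), which encodes a microtubule-destabilizing protein of growing axons. It had 71 UMIs in 25 members and 144 UMIs in 56 matched cells, 343 against 70.4 CPM, a log2 ratio of 2.28 (interval 1.85 to 2.70). Thus 40.3% of members (interval 28.1 to 53.6) and 9.03% of matched cells held Stmn2.

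Of the 16 genes, 6 had intervals above 0 and 10 had intervals that included 0, and against negative cells of the same clusters 4 of the 6 were still above 0. The 6 were Stmn2, Map2, Rtn1, Tagln3, Ncam1 and Tubb3. Map2, the dendritic microtubule protein, had a log2 ratio of 1.34 (interval 0.53 to 2.08) on 19 UMIs in members. It passed 50 CPM only through the members, at 91.7 against 36.2 CPM. The endoplasmic reticulum protein Rtn1, with 107 UMIs, had 0.84 (interval 0.53 to 1.14). The neural adhesion protein Ncam1 had 0.72 (interval 0.16 to 1.24, but 0.50 with an interval of -0.06 to 1.02 within clusters). Tagln3 had 0.77 (0.47 with an interval of -0.15 to 1.03 within clusters). The neuronal tubulin Tubb3 had 0.57 (interval 0.21 to 0.92), but ranged from 0.057 to 0.74 under the settings tried. Mapt, which encodes the axonal protein tau, lay below 50 CPM but had 14 UMIs in 8 members against 11 UMIs in 10 matched cells, a log2 ratio of 3.65 (interval 2.41 to 4.94). The 10 genes whose intervals included 0 ranged from -0.51 to 0.45. Among them were Gap43, a protein of growth cones, at 0.40 and the neurofilament gene Ina at -0.04. Below 50 CPM, the neurofilament gene Nefm had 1 UMI in members and 31 in matched cells. The synaptic gene Snap25 had -0.11 (interval -0.77 to 0.50) and Syt1 -0.51 (interval -1.68 to 0.46), and the RNA-binding proteins Elavl2, Elavl3 and Elavl4 lay between -0.16 and 0.19.

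The endocrine and neuronal transcription factors, 33 genes of which 6 passed 50 CPM, had a summed log2 ratio of 0.28 (interval 0.10 to 0.45), and 0 of the 6 were past 2-fold in either direction. Sox4, which acts in neuronal precursors, was the most abundant, with 95 UMIs in members and 630 in matched cells and a ratio of 0.57 (interval 0.25 to 0.89). Insm1 at 0.41 and Onecut2 at 0.47 had intervals that included 0. Nkx6-1, a factor of endocrine pancreas and motor neuron precursors, had 4 UMIs in members and 8 in matched cells. Its ratio was 2.30 (interval 0.12 to 4.20) on very few counts, and 2.04 (interval -0.11 to 3.89) within clusters.

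The neuroendocrine secretory genes had no common direction. Their summed log2 ratio was -0.01 (interval -0.15 to 0.14), and 0.17 (interval 0.03 to 0.32) against negative cells of the same clusters. The median over the 10 genes above 50 CPM was -0.61. Of these 10, 3 were at least 2-fold lower and 0 higher, and 4 had intervals below 0 and 2 above. The lower ones were Grp (gastrin-releasing peptide, 6 UMIs against 170, log2 ratio -1.52), Ddc (the decarboxylase that makes dopamine and serotonin, 8 against 182, -1.20) and Dnajc12 (9 against 194, -1.13). All 3 passed 50 CPM only through the matched cells, at 29.0, 38.6 and 43.4 CPM in members. The count of lower genes thus rests on genes admitted by the group in which they are high. Against negative cells of the same clusters, 1 of these 3 was still at least 2-fold lower, Grp at -1.17, while Ddc was at -0.84 (interval -2.08 to 0.18) and Dnajc12 at -0.90 (interval -2.06 to 0.06). Scg5, a chaperone of prohormone convertase, had -0.99 (interval -1.79 to -0.29). Nnat, an imprinted proteolipid of neuroendocrine cells, and Cpe, the carboxypeptidase that trims prohormones, were higher at 0.58 (interval 0.29 to 0.86) and 0.51 (interval 0.16 to 0.86). Calca, the calcitonin gene, had 1 UMI in members and 127 UMIs in 34 matched cells. A cluster of 53 cells led by Calca held 0 members and 10 matched cells, and against negative cells of the same clusters as the members the ratio was -0.49 (interval -5.89 to 2.25).

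The most regular difference was in epithelial transcripts. All 6 epithelial genes above 50 CPM were at least 2-fold lower, against 2.1% of all genes. Of these, Krt8, Krt18 and Cldn3 passed that minimum only through the matched cells, at 29.0, 43.4 and 38.6 CPM in members. The count of 6 thus rests partly on genes admitted by the group in which they are high. Krt7, Epcam and Spint2 were above 50 CPM in both groups. The 14 listed genes together, with no minimum, had 98 UMIs or 473 CPM in members and 3655 UMIs or 1786 CPM in matched cells. The summed log2 ratio was -1.92 (interval -2.22 to -1.63). Against negative cells of the same clusters it was smaller, and 1 of the 6 genes, Krt8, was still at least 2-fold lower. Krt8 (chromosome 15, 101996698 to 102004482), a keratin of simple epithelia, had 6 UMIs in 6 members and 424 UMIs in 210 matched cells, 29.0 against 207 CPM, a ratio of -2.84 (interval -4.29 to -1.71). Its filament partner Krt18 had -1.79 (interval -2.94 to -0.85), and Krt7 had -1.71 (interval -2.32 to -1.16). The adhesion molecule Epcam was at 86.9 against 360 CPM, a ratio of -2.05 (interval -2.81 to -1.38). The tight junction protein Cldn3 had 8 UMIs against 293 and a ratio of -1.89. The protease inhibitor Spint2 had -1.20 (interval -1.84 to -0.63).

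Cldn7, a further tight junction gene below 50 CPM, had 0 UMIs in members and 185 UMIs in 124 matched cells. It was 6.24-fold lower when the 0 is set to 3 UMIs over the group, with an upper interval bound of the log2 ratio of -2.33. Elf3, an epithelial ETS factor, had 1 UMI against 103, a ratio of -3.38 (interval -8.70 to -0.87), but -2.49 (interval -7.82 to 0.06) within clusters and -0.63 with at least 2 Neurod1 UMIs. Not every member lacked these transcripts. Of 62 members, 31 (interval 37.0 to 63.0%) held no UMI of the 14 genes, against 161 of 620 matched cells (26.0%, interval 22.6 to 29.6) and 283 of 620 cells matched within clusters (45.6%, interval 41.7 to 49.7), which lies inside the interval of the members. In 1 member there were 13 UMIs.

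For scale, free RNA puts some UMIs into droplets of other cells. In the 88 macrophage-rich barcodes, at a median of 1601.5 UMIs against 2809 in members, 2.27% held Stmn2, 10.2% Gadd45a, 4.55% Hey1, 3.41% Epcam and 6.82% Krt8, and 0 held Hes5, Nhlh2, Mapt, Dlk1 or Meg3. The shares of members with Stmn2 (40.3%) and Epcam (16.1%) lay above these. That with Krt8, 9.68%, lay inside the interval of the macrophage-rich barcodes (2.54 to 14.3%), so the few Krt8 UMIs in members are not read as expression.

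**Figure D3:**
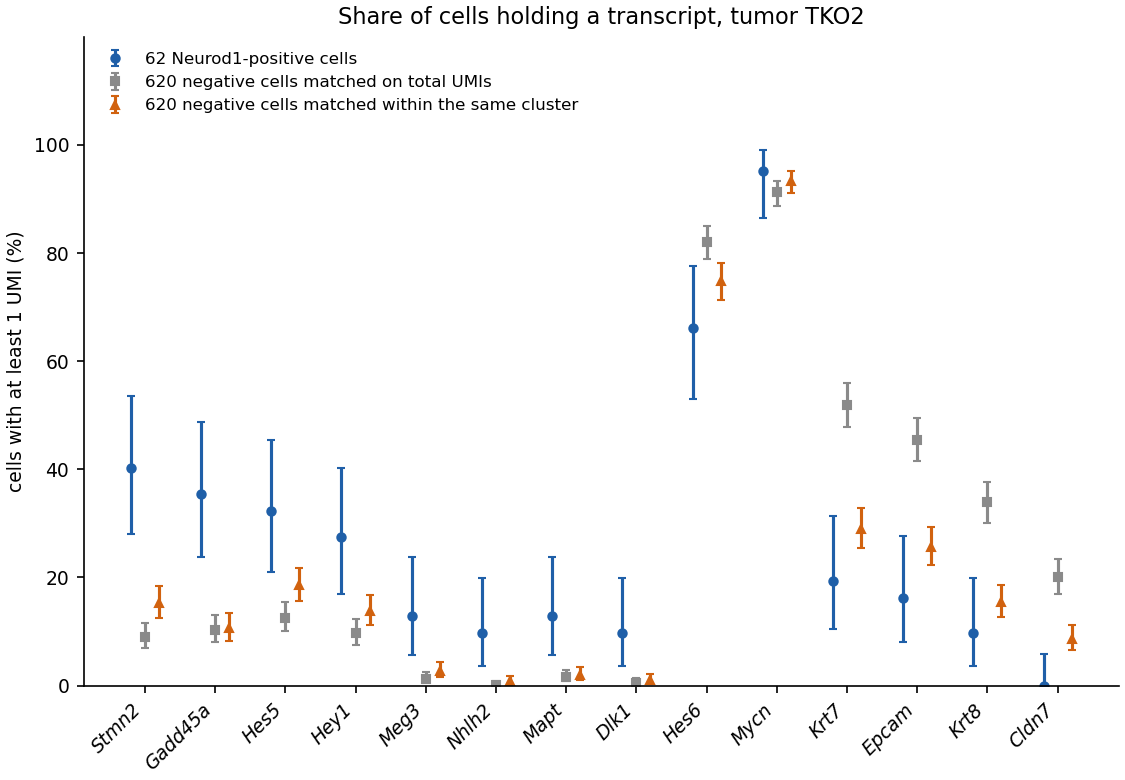
Percent of cells with at least 1 UMI (y axis) of each gene (x axis) in the 62 Neurod1-positive cells, in 620 Neurod1-negative cells matched on total UMIs and in 620 matched on total UMIs within the same cluster, with exact 95% intervals as bars. Stmn2 is held by 40.3% of members and 9.03% of matched cells, and Krt8 by 9.68% and 33.9%. The cells matched within clusters lie between the others for every gene drawn, but for Gadd45a and Mapt they lie close to the cells matched on total UMIs alone.

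Further genes also reached the first 15 places in each direction. Gadd45a, a growth arrest and DNA damage protein, had 43 UMIs in 22 members and 83 UMIs in 64 matched cells, 207 against 40.6 CPM, a log2 ratio of 2.36 (interval 1.79 to 2.90). Ttc8, a subunit of the ciliary BBSome, had 24 UMIs against 41 and the largest ratio of the 15, 2.53 (interval 1.74 to 3.29). Cald1 (caldesmon) was at 1.54 and Ppp1r14a, an inhibitor of myosin phosphatase, at 1.65. The secreted proteins Igfbpl1 and Cthrc1 had 1.18 and 1.25, and the metabolic enzymes Gamt (creatine synthesis) and Shmt2 (mitochondrial serine metabolism) 1.37 and 1.19. Meg3, an imprinted long noncoding RNA, had 16 UMIs in 8 members and 47 UMIs in 8 matched cells, so that 12.9% of members and 1.29% of matched cells held it. Ly6e at 1.52 and Cited1 at 1.54 complete the upward set with Cenpn, a centromere protein at 1.62. The Cenpn ratio rested on 1 member: without the cell of each group that held most Cenpn it was 0.38. Ttc8, Ppp1r14a, Meg3, Ly6e, Cited1 and Cenpn passed 50 CPM only through the members, as did Gadd45a and Hey1. Their places among the 15, and the largest ratio, thus rest partly on the group in which they are high.

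Downward, the genes outside the lists included Cnot6l (-2.12), Zic5 (-2.08), Lmna (-1.65), Pnrc2 (-1.49), Tmem238 (-1.48), Cystm1 (-1.32), Ostf1 (-1.30) and Tmem158 (-1.10). Among them are a deadenylase (Cnot6l), a zinc finger factor of neural development (Zic5) and the nuclear lamins A and C (Lmna). Cnot6l had 4 UMIs in members and 172 in matched cells, and Zic5 had 4 and 167. Cnot6l, Zic5 and Lmna passed 50 CPM only through the matched cells, at 19.3, 19.3 and 43.4 CPM in members. Against negative cells of the same clusters, Cystm1 was at -0.49 (interval -1.17 to 0.13) and Tmem158 at -0.41 (interval -0.87 to 0.01), while Lmna and Ostf1 were at -0.97 and -0.92.

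Of the cell cycle genes, those of DNA replication were slightly higher in sum and those of mitosis lower, but both sums moved with the setting. DNA replication genes had a summed log2 ratio of 0.16 (interval 0.05 to 0.26), and 0.04 (interval -0.07 to 0.15) within clusters. Of 17 genes, 0 were past 2-fold in either direction. Intervals above 0 were found for 3 of them, of which 0 were above 0 within clusters. Mcm7 was at 0.65 and Tyms at 0.52, but at 0.38 (interval -0.08 to 0.82) and 0.40 (interval -0.03 to 0.81) within clusters. Under the settings tried, Tyms ranged from -0.23 to 0.69. Mitosis genes had -0.23 (interval -0.32 to -0.14), with 5 of 18 intervals below 0 and 0 above, all 5 also below 0 within clusters. These were Nusap1 at -1.04 (interval -1.79 to -0.38), Cenpa at -0.81, Pttg1 at -0.78, Top2a at -0.56 and Ccnb1 at -0.52. The mitosis sum was -0.039 with no matching, -0.082 with the mean of each cell's CPM and 0.021 with at least 2 Neurod1 UMIs. Of the 18, Nusap1 alone was past 2-fold, but not within clusters (-0.81) or with 5 matched cells (-0.77). Mki67, the proliferation marker, lay below 50 CPM and had 3 UMIs in members and 119 in matched cells, a ratio of -2.01 (interval -4.30 to -0.42), and Cdk1 and Birc5 were at -0.02 and 0.01. Of 6 cell cycle exit genes, Gadd45a was higher and 2 were at least 2-fold lower, the inhibitors Cdkn2c (-1.39, interval -2.86 to -0.23) and Cdkn1c (-1.11, interval -1.82 to -0.48). Gadd45a passed 50 CPM only through the members, and Cdkn2c only through the matched cells.

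Mycn, a MYC family oncogene, was at 2997 CPM in members and 3049 in matched cells, a log2 ratio of -0.02 (interval -0.15 to 0.09), and 59 of 62 members held it. Its chromosomal neighbour Ddx1 was at 8522 and 9910 CPM, -0.22 (interval -0.29 to -0.15). Against negative cells of the same clusters, Mycn was at -0.13 (interval -0.25 to -0.01) and Ddx1 at -0.06 (interval -0.13 to 0.01). With at least 2 Neurod1 UMIs Ddx1 was at 0.15 and Mycn at 0.31 (interval 0.14 to 0.48). In members with 1 Neurod1 UMI, Mycn was at -0.32 (interval -0.49 to -0.15), so its ratio over all members joins classes with opposite signs. The remaining lists had 0 genes past 2-fold. These were glycolysis genes (5 tested, summed log2 ratio -0.05), immediate early and stress genes (8 tested, -0.14), the MYC list (5 tested, -0.15) and the regulators and destabilizers that the study names for its subtypes (5 tested, 0.09, Foxa2 at -0.05).

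**Figure D4:**
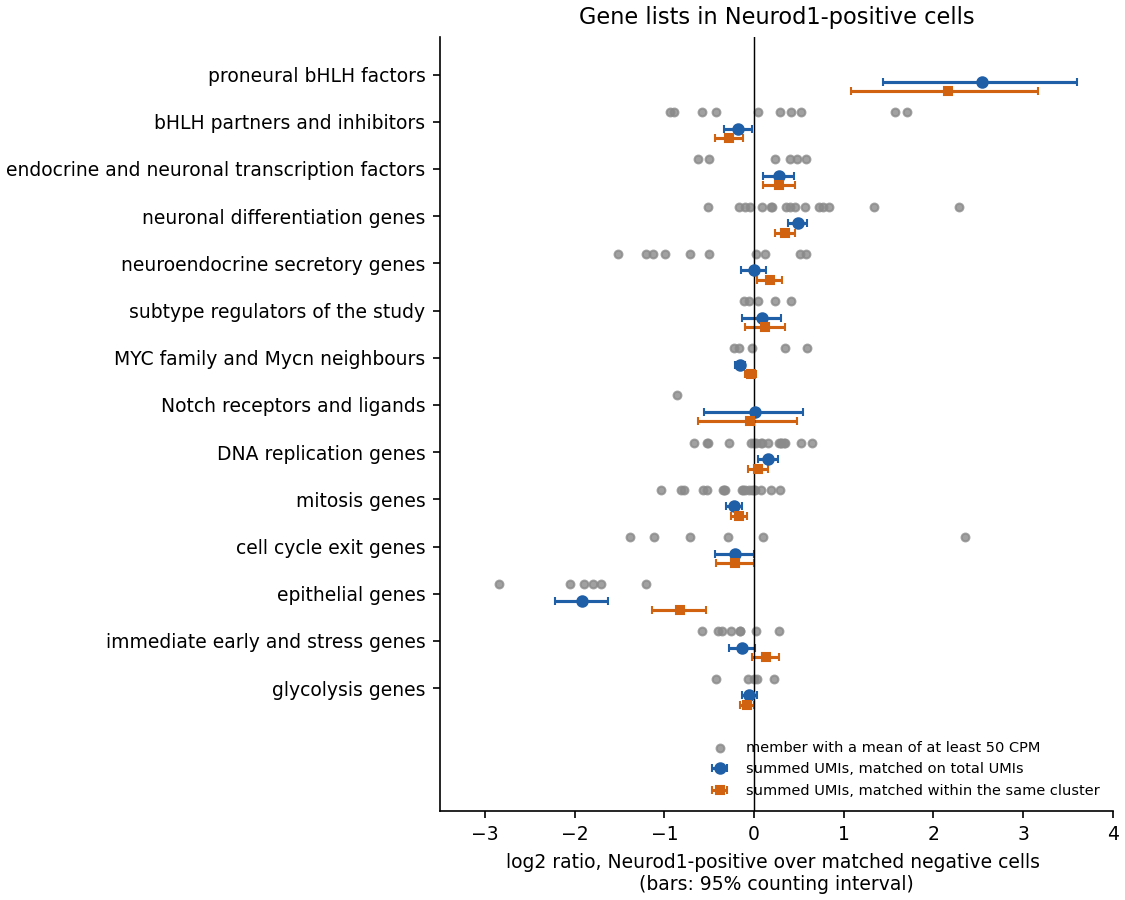
Log2 ratio of Neurod1-positive cells over matched Neurod1-negative cells (x axis) for 14 gene lists (y axis). Gray points are genes of the list with a mean of at least 50 CPM (the proneural list has none), blue circles the summed UMIs of the whole list, and orange squares the same against negative cells of the same cluster, with exact 95% intervals as bars. Of the lists drawn, only the epithelial genes have all their gray points below -1, and their summed ratio goes from -1.92 to -0.83 within clusters.

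Neurod1-positive cells were not a cluster of their own. The 3466 cells were clustered without Neurod1 into 11 clusters, and members were found in 8 of them. Cluster 6, led by Spp1, Vtn, Id3, Cartpt, Meg3, Hes5 and Hey1, held 16 members among 234 cells, 6.84% (interval 3.96 to 10.9), and 38.5 Neurod1 CPM. Cluster 0, led by Rrm2, Fst and Map2k6, held 24 of 592 cells, 4.05% (interval 2.61 to 5.97), and 24.6 CPM. Cluster 7, led by the mitosis genes Ccnb1, Cdc20 and Ube2c, held 5 of 210 cells and 18.4 CPM. At the other end, cluster 3, led by Cd200r1 and Vwf, held 0 of 490 cells, which allows a share of up to 0.612%, at a median of 1442.5 UMIs against 2189 in cluster 6 and 2269.5 in cluster 0.

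The clusters fell apart by their level of epithelial transcripts, which were among the genes clustered. In 5 clusters the 14 epithelial genes summed to between 391 and 503 CPM, and in the other 6 to between 1287 and 9033 CPM. The lowest of the 6 is cluster 10, 37 cells led by Ccl5, Cd74, Gzma and Nkg7, which are known as genes of immune cells; it held 0 members and 4 matched cells. The limit of 1000 CPM between these was set after the values were seen. The 5 epithelial-low clusters held 53 of the 62 members (85.5%) and 330 of the 620 matched cells (53.2%). Neurod1 UMIs were in 3.32% of their 1596 cells (interval 2.50 to 4.32) and in 0.481% of the 1870 others (interval 0.220 to 0.912), at medians of 2098.5 and 1861 UMIs. Counted against total UMIs these were 21.7 Neurod1 CPM (interval 17.3 to 26.8) and 2.50 CPM (interval 1.20 to 4.60), and with each cell thinned to 1000 UMIs 23 of 1442 cells (1.60%, interval 1.01 to 2.38) and 2 of 1644 cells (0.122%, interval 0.0147 to 0.439) kept one. Without cluster 10, the other 5 of the 6 epithelial-high clusters summed to between 3424 and 9033 CPM, Neurod1 UMIs were in 0.491% of their 1833 cells, and the matched comparison gave 49 genes at least 2-fold higher and 62 lower. Among the epithelial-low clusters the share still ranged from 1.42% in cluster 2, led by Cdkn1c and Gamt, to 6.84% in cluster 6.

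**Figure D5:**
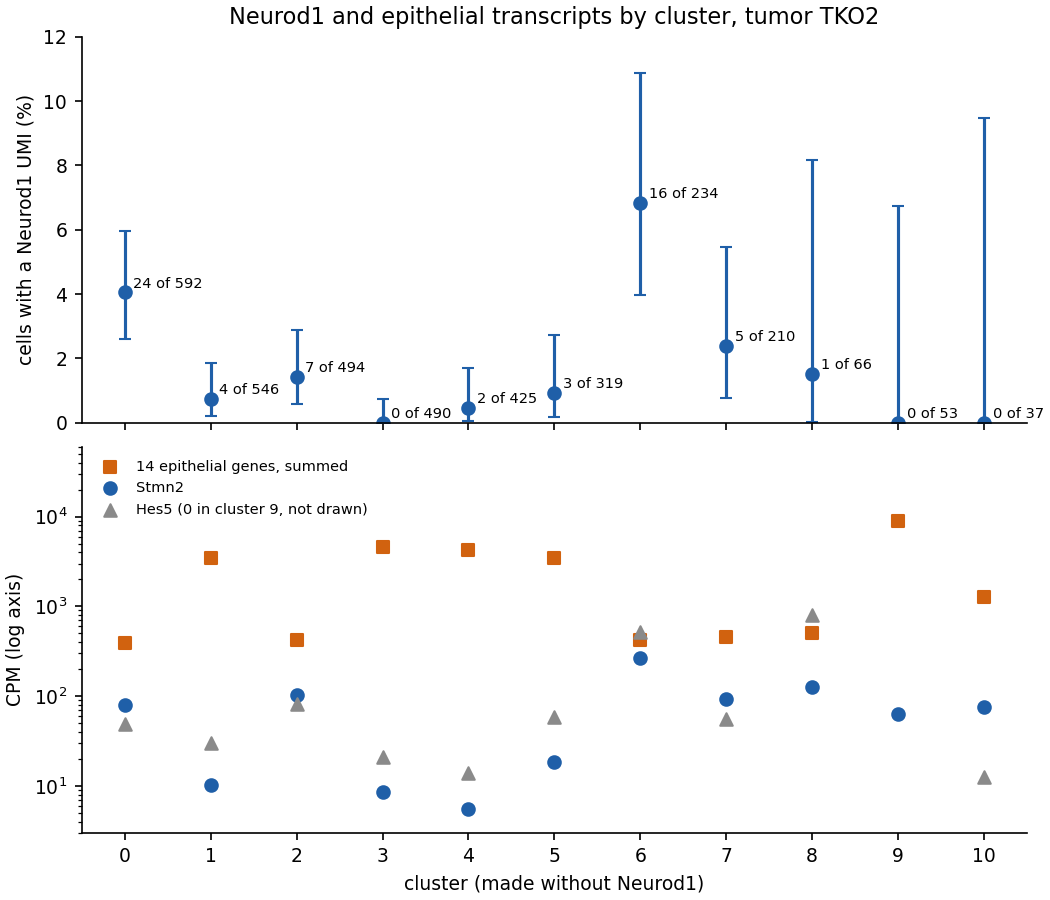
Top, percent of cells with a Neurod1 UMI (y axis, exact 95% intervals as bars) in each of 11 clusters of TKO2 (x axis), with the number of members of all cells. Bottom, CPM (y axis, log) of 14 epithelial genes summed, of Stmn2 and of Hes5 in the same clusters. Clusters 0, 2, 6, 7 and 8 are low in epithelial genes and hold 53 of the 62 members.

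Many of the differences were smaller against Neurod1-negative cells of the same clusters. Set against 620 negative cells matched on total UMIs within the same cluster, a comparison added after the values were seen, the summed ratio of epithelial genes was -0.83 (interval -1.14 to -0.53). Of the 6 epithelial genes above 50 CPM, 3 had intervals below 0, Krt8 at -1.62 (interval -3.08 to -0.47), Epcam at -0.94 and Krt7 at -0.67. The intervals of Cldn3 at -0.77, Krt18 at -0.38 and Spint2 at -0.37 included 0. Cldn7 was still 2.87-fold lower with its 0 set to 3 UMIs, with an upper interval bound of the log2 ratio of -1.19. Hes5 and Hey1 were at 0.86 (interval 0.45 to 1.25) and 0.91 (interval 0.26 to 1.52). The neuronal differentiation list was at 0.34 in place of 0.49, Stmn2 at 1.64 (interval 1.23 to 2.04) in place of 2.28, and Nhlh2 at 2.80 (interval 1.37 to 4.17) in place of 4.89. Gadd45a was at 2.23 (interval 1.67 to 2.78), Ttc8 at 2.31, Mapt at 3.44 and Dlk1 at 4.41. Of the first 15 genes in each direction, 11 of the higher and 6 of the lower were still past 2-fold. The 4 higher genes that were not were Hes5, Hey1, Gamt (0.92) and Cthrc1 (0.87).

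The genes held together with Neurod1 were counted in the members of the clusters that held most of them. In cluster 6, Hes5 was held by 12 of 16 members and Hey1 by 10 of 16. In cluster 0 each was held by 3 of 24. Stmn2 was held by 7 of 16 and 11 of 24 members, and Gadd45a by 6 of 16 and 10 of 24. Hes5 and Hey1 were both among the leading genes of cluster 6, so their shares there are a property of how the cells were clustered, and no difference between clusters was tested. Over all 62 members, Hes5 and Stmn2 met in 4 cells, 16 had Hes5 alone, 21 Stmn2 alone and 21 neither, whereas Hes5 and Hey1 met in 11 of the 20 cells with Hes5. Nhlh2 met Stmn2 in 5 of its 6 cells. These counts are descriptions of few cells at a median of 2809 UMIs, where a missing UMI does not show that a transcript was absent.

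The 23 members with at least 2 Neurod1 UMIs and the 39 with 1 UMI were each compared with their own matched cells. The epithelial genes were at -1.99 (interval -2.50 to -1.52) in the former and -1.91 (interval -2.30 to -1.54) in the latter. Stmn2 was at 2.35 (interval 1.75 to 2.93) and 1.96 (interval 1.33 to 2.57). Gadd45a was at 2.91 (interval 2.15 to 3.67) and 1.70 (interval 0.76 to 2.57). Hes5 went the other way, at 0.71 (interval -0.19 to 1.51) and 2.14 (interval 1.62 to 2.64), and so did Igfbpl1, at 0.50 and 1.54. Mycn was at 0.31 (interval 0.14 to 0.48) and -0.32 (interval -0.49 to -0.15). The difference between these classes was not tested, and their median totals were 2753 and 3301 UMIs.

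Of the 6 cells with 3 or more Neurod1 UMIs, none held a UMI of Krt8, Krt7, Epcam or Mki67. The cell with 5 Neurod1 UMIs among 2745 had 17 Mycn UMIs and 1 Stmn2 UMI. Of the cells with 4, 1 had 6 Stmn2 UMIs among 2162 in all, and the other 4 Gadd45a, 2 Hey1 and 1 Hes5 UMIs among 4241.

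Markers of most other cell types were at or near 0 in members, except the endothelial and ciliated cell lists. Alveolar type 2, alveolar type 1, fibroblast and lymphocyte markers had 0 UMIs in members and 1, 10, 15 and 2 UMIs in matched cells, and so did the club cell and macrophage markers left after the genes of the rule, with 9 and 8 UMIs in matched cells. The rule limited club cell and macrophage UMIs in both groups, so the low counts of these 2 lists follow partly from it. With so few UMIs in matched cells, 0 in members shows no difference between the groups. Neutrophil and red cell markers had 2 and 10 UMIs. The endothelial list had 28 UMIs in 21 members (33.9%) and 191 UMIs in 140 matched cells (22.6%), 135 against 93.3 CPM, a log2 ratio of 0.53 (interval -0.09 to 1.11). Egfl7 gave 20 and 157 of these UMIs and Ramp2 8 and 33, with Pecam1, Cdh5, Kdr, Emcn and Cldn5 all at 0 in members. The ciliated cell list had 10 UMIs in 9 members and 33 UMIs in 17 matched cells, 48.3 against 16.1 CPM, a log2 ratio of 1.58 (interval 0.40 to 2.64), and 14.5% against 2.74% of cells held one. Of these UMIs Tppp3 gave 7 and 32, Foxj1 2 and 1, and Cfap126 1 and 0, with Sntn, Tmem212, Ccdc153 and Dynlrb2 at 0. Tppp3 was among the leading genes of cluster 6, and within clusters the list was at 0.39 (interval -0.73 to 1.35). Scrublet called 0 doublets in TKO2, and 1 member scored above its 95th percentile. Without the 5% of cells with the highest scores, the summed ratio of epithelial genes was -2.02 and those of Stmn2, Gadd45a and Hes5 were 2.30, 2.39 and 1.48.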

How the data were processed

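Live cells of 2 tumors, each from its own mouse, were profiled as 1 library per tumor. The authors deposited UMI counts per gene and cell barcode, as whole numbers that were not normalized, with 27998 gene identifiers. The submitters' processing notes name Cell Ranger, Seurat and the mm10 build, with no versions. Gene positions came from GENCODE M21 (GRCm38), which holds 27645 of the identifiers.

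The members, the 23 gene lists and the comparisons were chosen with earlier results of these data known. Named genes are those of the lists and the 15 in each direction whose interval bound lay farthest from 0 among genes with a mean of at least 50 CPM. The genes of the rule were left out, and some single genes are not reported here or counted in the lists. Each member was matched without replacement to 10 Neurod1-negative cells on total UMIs. UMIs were summed per group and log2 ratios given exact conditional binomial intervals, shares Clopper-Pearson intervals (Python 3.11.15, scipy 1.17.1). A group at 0 UMIs was set to 3 UMIs. The ratios were tested on simulated Poisson counts, which follow the model behind the intervals and hold no clumping of UMIs in single cells. That test thus cannot show how the intervals fare with spread between cells. Clusters came from Seurat 5.3.0 without Neurod1 (1000 variable genes, 10 principal components, resolution 0.8), TMM factors from edgeR 4.0.16 (no test was run, as there are no replicate libraries), and doublet scores from Scrublet (scanpy 1.11.5).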

Additional observations from a re-analysis of the deposited data

How the results depend on the processing

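The settings tried were 5 or 20 matched cells, no matching, a total without ribosomal protein and mitochondria-encoded genes, TMM factors, the mean of each cell's CPM, stricter limits on cells, other CPM minimums, matching within clusters, and leaving out cluster 10, the last 2 added after the values were seen. All 45 named genes past 2-fold kept their sign under each of them. Of 869 values of named genes, 47 left the interval of the value reported, mostly with at least 2 Neurod1 UMIs or within clusters. The number of genes at least 2-fold higher and lower was 202 and 157 with at least 2 Neurod1 UMIs (fewer cells), 268 and 319 at 20 CPM, 14 and 18 at 100 CPM, and 81 and 103 without ribosomal and mitochondrial genes. It was 94 higher with the mean of each cell's CPM and 39 lower within clusters. With TMM factors it was 38 higher and 86 lower. The share of cells with a Neurod1 UMI was 0.664% at 2 or more UMIs, 2.70% with more than 1000 genes and 0.778% after thinning to 1000 UMIs. Summed log2 ratios of lists that moved within clusters were -0.83 (epithelial), 0.34 (neuronal differentiation), 0.17 (secretory), -0.038 (MYC list), 0.044 (replication) and 0.13 (stress). With no matching they were -2.24 (epithelial), 0.47 (endocrine and neuronal factors), 0.0038 (MYC list), -0.039 (mitosis) and -0.40 (stress). With at least 2 UMIs they were -0.46 (bHLH partners), -0.14 (subtype regulators), 0.21 (MYC list), 0.037 (replication), 0.021 (mitosis), 0.041 (stress) and 0.042 (glycolysis). With the mean of each cell's CPM they were 0.61 (neuronal differentiation), -0.082 (mitosis) and -0.32 (stress), with TMM -0.24 (MYC list) and -0.13 (glycolysis), and at 100 CPM 0.22 (secretory). At 20 CPM the proneural list held Nhlh2 alone, at 4.89. The cause was not tested. No paired analysis was possible because the comparison lies within 1 library. Depth limits the rest: most members rest on 1 Neurod1 UMI, and a ratio built on fewer than 10 UMIs in members spans several fold.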

Other observations

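Since Stmn2 had the largest ratio among the neuronal differentiation genes above 50 CPM, the cells that held Stmn2 but no Neurod1 were also looked at, a group chosen after its values were seen. In TKO2, 230 of 3404 Neurod1-negative cells (6.76%) held Stmn2, and in TKO1 2 of 3005 cells did (0.0666%), at medians of 1958 and 1213 UMIs. With each cell thinned to 1000 UMIs, 115 of 3028 cells (3.80%, interval 3.15 to 4.54) and 1 of 2161 cells (0.0463%, interval 0.00117 to 0.258) kept a Stmn2 UMI. The 230 cells were set beside 2300 cells with neither transcript, matched on total UMIs (medians 2499 and 2309.5). They too were low in epithelial transcripts, with 445 UMIs or 652 CPM of the 14 genes against 13093 UMIs or 2273 CPM, a log2 ratio of -1.80 (interval -1.94 to -1.67), and Krt8 at -2.34 (interval -2.83 to -1.89). Hey1 was at 1.75 (interval 1.36 to 2.14), Hes5 at 0.82 (interval 0.50 to 1.13) and Gadd45a at 1.16 (interval 0.69 to 1.60). Nhlh2 had 16 UMIs against 5, a ratio of 4.75 (interval 3.24 to 6.56). Of the 255 cells with Stmn2 in TKO2, 25 (9.80%) were Neurod1-positive.

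Some of the higher genes are neighbours in the genome. Stmn2 and Hey1 lie on chromosome 3 with 101752 bases between them (GENCODE M21), and 9 members held both, 16 Stmn2 alone and 8 Hey1 alone. Dlk1 and Meg3, both of an imprinted region of chromosome 12, lie 77664 bases apart. Over all 3466 cells, 18 held Dlk1 and 40 Meg3, of which 6 and 8 were members, and 2 members held both.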
